A study of Mus musculus with 48 samples.

Results

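Mouse embryonic stem cells in which the histone methyltransferases Mll3 and Mll4 had been knocked out together (dKO) were compared with their wild-type counterpart (WT) by RNA sequencing. The comparison took in all genes with a TPM (transcripts per kilobase scaled to a fixed total per library) of 1 or more in 3 or more of the 6 libraries, which left 15536 of the 48321 genes in the deposited table. Each line had 3 libraries, from a series of 48 samples that also profiled chromatin. Both lines were male R1 cells of strain 129SV, grown without serum in N2B27 medium with leukaemia inhibitory factor (LIF) and 2 inhibitors (2i), PD0325901 against MEK and CHIR99021 against GSK3b. The dishes carried polyL-ornithine and laminin, and the cells were moved to fibronectin before collection. A further 3 libraries came from cells in which Mll3 and Mll4 are present but catalytically deficient (dCD), and they are used to compare the mutant lines and in an alternative fit of all 9 libraries. Each genotype is represented by a single line, and nothing in the labels states that its libraries were separate cultures. The p-values thus describe only how much these libraries vary, a variation that may be technical, and a clone and its genotype cannot be told apart.

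Mll3 (gene symbol Kmt2c) and Mll4 (Kmt2d) are large enzymes that place a single methyl group on lysine 4 of histone H3, the mark that covers enhancers. They work in a complex that also carries the demethylase Utx (Kdm6a) and the adaptors Ncoa6, Paxip1 and Pagr1a, and they share a core of Wdr5, Rbbp5, Ash2l and Dpy30 with the other H3K4 methyltransferases. Enhancers that carry the mark recruit acetyltransferases, Mediator and RNA polymerase II, and in embryonic stem cells they serve the genes that keep the cells pluripotent and those that respond when the cells leave that state.

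The targeted genes differed from each other in direction. Values here and below are TPM, and fold changes are differences on log2(TPM + 1). Kmt2c measured 21.6, 19.7 and 21.9 TPM in the WT libraries and 7.995, 7.55 and 7.44 TPM in those of dKO, with no overlap between the lines (log2 fold change -1.35 with an SE of 0.0555 and an adjusted p in limma of 2.02e-07). Kmt2d measured 67.4, 65.2 and 66.6 TPM in the WT libraries and 84.8, 80.5 and 83.5 TPM in those of dKO and was higher in dKO (log2 fold change 0.32 with an SE of 0.0279 and an adjusted p in limma of 1.72e-05). The labels do not say which part of either gene was edited, and reads outside an edited part check nothing, so these values do not check the genotype.

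The change between the lines was broad. By limma's test with Benjamini-Hochberg adjustment, 11383 of the 15536 genes (73.3%) passed an adjusted p of 0.05, with 6889 higher (44.3%) and 4494 lower in dKO (28.9%). Small differences also passed, and the libraries of the lines did not overlap for 75.9% of all tested genes. Most counts below therefore also name the genes that changed at least 2-fold, meaning a log2 fold change of at least 1 in size on log2(TPM + 1), a scale that understates the change of low genes. There were 2229 such genes (14.3%), 967 higher (6.22%) and 1262 lower (8.12%). At 4-fold the counts were 153 higher and 331 lower, and at 8-fold 32 and 75. The median log2 fold change over all tested genes was 0.10. When the libraries were rescaled by the median ratio of each gene to its mean over the 6 libraries, the median was 0.01 and the split of called genes was 5547 higher and 5539 lower, so the surplus of higher genes at the adjusted p alone depended on the scaling. With that scaling 818 genes were higher and 1376 lower by at least 2-fold. Counts of list members below are to be read beside the shares of all tested genes given here. No list was tested as a set.

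**Figure D1:**
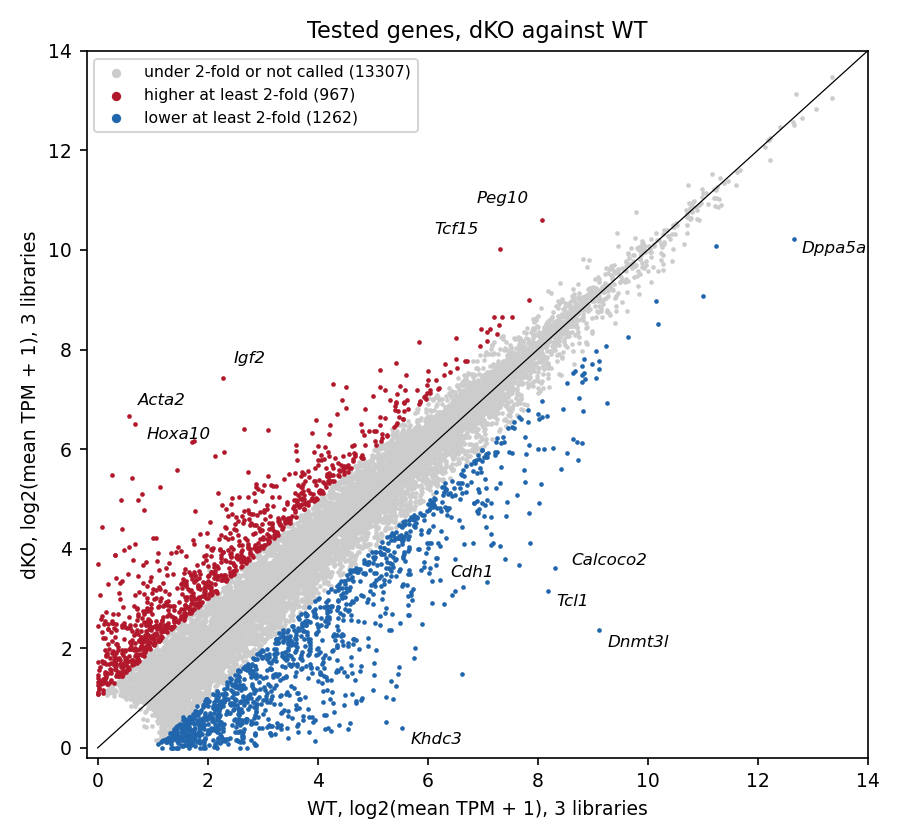
Mean level of each tested gene in WT (x axis) and dKO (y axis), as log2(mean TPM + 1) over 3 libraries a line, with the diagonal as a line of equal level. The 967 red genes were higher and the 1262 blue genes lower by at least 2-fold, and the points for Hoxa10, Acta2 and Igf2 lie far above the diagonal while those for Dnmt3l, Tcl1 and Khdc3 lie far below it.

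Recovered depth was 21090624 to 40519709 reads in WT and 25956251 to 33392132 reads in dKO, which gave the gene of median coverage 390 to 743 reads in a library. Within a line, libraries correlated across genes at r of 0.994 to 0.996, and across lines at 0.936 to 0.938. Genes are not independent replicates, so these values describe the libraries only. The labelled cell type was checked on 12 markers of embryonic stem cells, all above the filter, whose summed level was 16332 to 16843 TPM in WT and 8746 to 8827 TPM in dKO. Of these markers 11 were lower, 3 of them by at least 2-fold, and 1 was higher in dKO, and none was under 1 TPM in either line. Most of the fall in the sum was that of Dppa5a, which went from 6433 to 1199 TPM. The 12 fibroblast markers summed to 8.18 to 9.77 TPM in WT and 19.3 to 21.7 TPM in dKO. Of the 12, 8 were under 1 TPM in every dKO library and 10 in every WT library. Of the 5 that passed the filter, 3 were higher and 1 lower in dKO. Col1a1 rose from 0.47 to 10.2 TPM, Col1a2 from 0.0189 to 1.28 TPM and Col3a1 from 0.00873 to 1.11 TPM. Thy1 fell from 2.18 to 0.412 TPM. The 9 smooth muscle markers summed to 54.4 to 57.1 TPM in WT and 212 to 236 TPM in dKO. Of the 6 that passed the filter, 4 were higher and 1 lower in dKO. Acta2 rose from 0.488 to 100.1 TPM and Tagln from 2.38 to 70.7 TPM. Myh11 and Myocd went from 0.119 to 0.297 TPM and from 0.0163 to 0.135 TPM, under 1 TPM in every library of dKO. In bulk RNA, fewer cells of a type and less RNA per cell cannot be told apart.

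Among the 9 tested genes of the Mll3/4 complex, 4 were higher and 4 lower. The adaptor Ncoa6 went from 29.2 to 40.9 TPM (0.47 as log2 fold change) and the core subunit Rbbp5 from 94.4 to 129 TPM (0.45). The other core subunits fell, with Wdr5 (-0.67), Ash2l (-0.47) and Dpy30 (-0.26), where values in parentheses are log2 fold changes. Utx, the demethylase partner, did not pass the test (31.01 to 33.7 TPM, 0.12), but passed as higher without WT replicate 3 (0.16) or without dKO replicate 1 (0.15). It also passed in the fit of all 9 libraries (0.12) and with voom on the recovered reads (0.10), and was at 0.02 with median-ratio scaling, where it did not pass. Of 9 related methyltransferases, 6 were higher and 2 lower, beside 44.3% and 28.9% of all tested genes. Setd1a (0.61), Setd1b (0.60) and Kmt2a (0.44) were up and Kmt2b down (-0.19). Pagr1a was below the filter.

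Those lower by at least 2-fold made up 6.19% of all TPM in WT and 1.82% in dKO. Those higher by at least 2-fold made up 0.968% in WT and 2.98% in dKO. A gene of the lower set had a median level of 11.1 TPM in WT and 2.16 TPM in dKO, and 36.1% of the set ended under 1 TPM. In the higher set the median went from 2.72 to 10.1 TPM, and 31.1% of its genes had been under 1 TPM in WT. Of the tested genes, 13166 had at least 1 TPM in all 6 libraries, 503 passed the filter only through the dKO libraries and 569 only through the WT libraries, and a gene of the last 2 kinds had to differ to be tested. At the edge of the filter, Kcns1 was just inside, with a third-highest value of 1.00015 TPM, and Krt13 just outside, with 0.999 TPM.

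Some genes went from near silence to a clear signal. Among the 15536, 19 had at least 5 TPM in all dKO libraries and under 0.5 TPM in all WT libraries. The list holds Hoxa9, Hoxa11, Hoxc9 and Hoxc11, which pattern the body axis, the GDNF-family co-receptor Gfra3, the Wnt ligand Wnt8a, the matrix glycoprotein Thbs1, the synaptotagmin Syt13, Sh3bgrl and the cardiac actin Actc1. Sh3bgrl measured 0.351, 0.32 and 0.333 TPM in the WT libraries and 28.9, 29.9 and 33.004 TPM in those of dKO (log2 fold change 4.56 with an SE of 0.0698 and an adjusted p in limma of 1.71e-09). Syt13 measured 0.376, 0.345 and 0.459 TPM in the WT libraries and 15.45, 13.7 and 14.8 TPM in those of dKO (3.49). The rule for this list already sets the lines apart, so the gap in both genes is no separate result. No WT library held a read of Actc1, whereas dKO measured 14.05, 12.6 and 9.11 TPM. Set against 3 reads in the WT library where 3 reads are worth most (0.291 TPM), Actc1 was at least 41.0-fold higher.

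The opposite pattern, at least 5 TPM in all WT libraries and under 0.5 TPM in all dKO libraries, held for 28 genes. Khdc3, an RNA-binding protein of the oocyte and early embryo, measured 47.3, 45.9 and 42.8 TPM in the WT libraries and 0.378, 0.395 and 0.169 TPM in those of dKO (log2 fold change -5.14 with an SE of 0.0843 and an adjusted p in limma of 2.28e-09). Stra8, which starts meiosis in response to retinoic acid, measured 18.4, 17.6 and 15.9 TPM in the WT libraries and 0.287, 0.28 and 0.383 TPM in those of dKO (log2 fold change -3.79 with an SE of 0.0819 and an adjusted p in limma of 7.24e-09). The aldehyde oxidase Aox3 measured 14.5, 14.7 and 14.1 TPM in the WT libraries and 0.11, 0.101 and 0.0819 TPM in those of dKO (-3.81). The rule for this group sets the levels in both lines, so the gap between them is no separate result. The rest of this group included the lipase Liph, the POU factor Pou2f3, the myosin Myh13, the proton pump subunit Atp6v0a4, the phospholipase Pla1a, the homeobox gene Crxos and the T-box factor Tbx21, with log2 fold changes of -4.18 to -3.04.

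The largest rises by fold were those of Acta2, Hoxa10, Hoxa9, Igf2, Tex13, Sh3bgrl, Cryab, Tagln, Hoxa11, Hoxa5, Hist3h2ba, Gfra2, Hoxa7, Gfra3 and Olig3. Tex13, an X-linked gene of male germ cells, measured 0.413, 0.753 and 0.449 TPM in the WT libraries and 41.3, 40.6 and 43.1 TPM in those of dKO (4.80). The histone gene Hist3h2ba measured 0.419, 0.792 and 0.768 TPM in the WT libraries and 31.1, 30.1 and 30.6 TPM in those of dKO (4.26). Olig3, a basic helix-loop-helix factor of the developing neural tube, measured 0.879, 0.594 and 0.921 TPM in the WT libraries and 27.7, 25.5 and 26.4 TPM in those of dKO (3.94). All 3 were at or under 1 TPM in every WT library and above 25 TPM in every dKO library. The GDNF-family co-receptor Gfra2 measured 1.93, 1.66 and 1.59 TPM in the WT libraries and 46.6, 44.6 and 49.1 TPM in those of dKO (4.13) and its relative Gfra3 0.452, 0.326 and 0.315 TPM in the WT libraries and 20.9, 19.7 and 19.5 TPM in those of dKO (3.95). The largest falls were those of Dnmt3l, Aire, Khdc3, Tcl1, Calcoco2, Nphs1, Ak7, Pou2f3, Rnf213, Liph, Pla2g1b, H2-Eb1, B4galnt3, Myh13 and Inpp5d. Calcoco2, a receptor in selective autophagy, measured 310.1, 320.3 and 318 TPM in the WT libraries and 10.8, 11.04 and 12.01 TPM in those of dKO (log2 fold change -4.69 with an SE of 0.0386 and an adjusted p in limma of 1.73e-10). Pla2g1b, a secreted phospholipase, measured 194, 209.6 and 200.3 TPM in the WT libraries and 11.6, 12.3 and 11.1 TPM in those of dKO (-3.996). Inpp5d, a phosphoinositide phosphatase best known in blood cells, measured 44.2, 43.8 and 43.05 TPM in the WT libraries and 2.14, 1.96 and 2.12 TPM in those of dKO (-3.86). All 3 kept a measurable remainder in dKO. Calcoco2 overlaps Ttll6 in the annotation and Aire overlaps Dnmt3l. Without a stated strand setting the reads of such pairs cannot be told apart.

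By amount of RNA, other genes led. The retrotransposon-derived imprinted gene Peg10 measured 279.6, 275 and 257 TPM in the WT libraries and 1540.1, 1554 and 1536 TPM in those of dKO (log2 fold change 2.51 with an SE of 0.031 and an adjusted p in limma of 6.65e-10). Tcf15, a basic helix-loop-helix factor of cells primed to leave naive pluripotency, measured 161, 159 and 157 TPM in the WT libraries and 1079, 1021 and 1003 TPM in those of dKO (log2 fold change 2.69 with an SE of 0.0291 and an adjusted p in limma of 4.15e-10). For both, the dKO libraries agreed within a narrow range far above WT. Abundant genes that changed by less than 2-fold added much RNA, among them the chaperone Hsp90ab1 (6648 to 9015 TPM, 0.44), the mitochondrial protein Chchd10 (1689.9 to 2514 TPM, 0.57) and the LIM protein Csrp2 (453 to 899.8 TPM, 0.99). Among falls, the stem cell gene Dppa5a measured 6166, 6572 and 6560.0 TPM in the WT libraries and 1198, 1184 and 1215 TPM in those of dKO (log2 fold change -2.42 with an SE of 0.0282 and an adjusted p in limma of 5.80e-10). Brain-type creatine kinase, Ckb, measured 2049, 2075 and 2049 TPM in the WT libraries and 552, 532 and 533 TPM in those of dKO (-1.93), and uridine phosphorylase, Upp1, 1177, 1161 and 1134 TPM in the WT libraries and 372, 355 and 363 TPM in those of dKO (-1.67). The fall of Dppa5a was the largest in TPM of any tested gene with a usable symbol.

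The promoters of the changed genes were read from RefSeq (build GRCm38.p6) as windows of 300 bases, 250 before and 50 after the start. A window was used where a tested gene had exactly 1, which held for 8229 genes. This look at promoters, its thresholds and its motifs were chosen after the values had been seen. The windows of 6 genes are shown: a gene that fell and holds no CpG (Khdc3, chr9:73102148-73102447, plus strand), a gene that fell with some (Tcl1, chr12:105222688-105222987, minus strand), a gene that fell from a CpG-dense window (Rnf213, chr11:119389849-119390148, plus strand), a gene that rose from one (Hoxa5, chr6:52204538-52204837, minus strand) and a pair of actin genes that rose and hold a CArG box, the site bound by serum response factor (Actc1, chr2:114052826-114053125, minus strand, and Acta1, chr8:123894726-123895025, minus strand). Capitals mark CpG dinucleotides in the first 4 and the CArG box in Actc1 and Acta1.
Khdc3: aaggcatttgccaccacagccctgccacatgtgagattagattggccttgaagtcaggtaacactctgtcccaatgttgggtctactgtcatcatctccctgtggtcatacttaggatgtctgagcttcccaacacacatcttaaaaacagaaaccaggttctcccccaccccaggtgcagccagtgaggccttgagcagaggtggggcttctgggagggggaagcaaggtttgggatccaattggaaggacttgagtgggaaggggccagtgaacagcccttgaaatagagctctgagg
Tcl1: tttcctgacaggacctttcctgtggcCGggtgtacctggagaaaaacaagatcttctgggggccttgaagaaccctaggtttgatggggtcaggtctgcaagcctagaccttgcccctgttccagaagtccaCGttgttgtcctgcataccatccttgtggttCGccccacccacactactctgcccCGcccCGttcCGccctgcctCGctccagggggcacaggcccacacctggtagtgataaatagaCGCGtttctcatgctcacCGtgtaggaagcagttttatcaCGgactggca
Rnf213: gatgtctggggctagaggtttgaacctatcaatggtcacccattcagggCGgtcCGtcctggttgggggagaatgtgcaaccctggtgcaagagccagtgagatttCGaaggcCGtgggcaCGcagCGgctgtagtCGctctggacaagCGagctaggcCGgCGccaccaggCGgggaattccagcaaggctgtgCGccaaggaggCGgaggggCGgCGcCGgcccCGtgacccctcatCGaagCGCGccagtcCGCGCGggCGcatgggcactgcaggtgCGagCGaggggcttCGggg
Hoxa5: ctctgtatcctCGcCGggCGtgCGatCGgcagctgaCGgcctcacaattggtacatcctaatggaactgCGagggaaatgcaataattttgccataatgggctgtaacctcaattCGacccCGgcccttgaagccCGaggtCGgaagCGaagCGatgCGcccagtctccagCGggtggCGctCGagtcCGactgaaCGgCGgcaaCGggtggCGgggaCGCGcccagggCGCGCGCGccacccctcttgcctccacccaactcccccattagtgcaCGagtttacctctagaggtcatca
Actc1: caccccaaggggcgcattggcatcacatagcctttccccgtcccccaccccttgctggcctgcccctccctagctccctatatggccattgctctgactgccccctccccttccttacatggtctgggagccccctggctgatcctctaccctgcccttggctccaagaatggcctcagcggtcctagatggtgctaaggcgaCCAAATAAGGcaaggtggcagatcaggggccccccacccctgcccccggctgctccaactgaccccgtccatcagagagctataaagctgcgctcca
Acta1: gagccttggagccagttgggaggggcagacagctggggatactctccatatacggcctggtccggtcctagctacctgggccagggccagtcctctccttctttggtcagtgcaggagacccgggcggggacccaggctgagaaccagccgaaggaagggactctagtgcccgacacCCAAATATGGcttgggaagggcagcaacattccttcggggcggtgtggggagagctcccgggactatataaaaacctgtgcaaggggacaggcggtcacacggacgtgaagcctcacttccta

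These windows span the range. Khdc3 has 0 CpG, Tcl1 11, Rnf213 27 and Hoxa5 29. Over all 8229 windows the median was 21 CpG, and 70.7% were CpG-rich, here a GC content of at least 50% with an observed to expected CpG ratio of at least 0.6. Among the 627 genes with a window that were lower by at least 2-fold the median was 12 CpG and 40.8% were CpG-rich. Among the 503 that were higher the median was 19 and 60.8% were CpG-rich, and among the 7099 that changed less or not at all the values were 22 and 74.1%. Level in WT moved with this measure, so genes were also split by it. At 1 to 10 TPM in WT, 28.0% of 282 lower genes, 60.1% of 228 higher genes and 57.7% of 1930 others were CpG-rich. Above 10 TPM the shares were 51.3% of 345, 69.7% of 109 and 81.2% of 4980. The order of lower genes and others was the same in both bands, that of higher genes and others was not. There were exceptions to the low CpG count of lower genes, Rnf213 (27 CpG) among them. Aire (16 CpG) was under the median count of 21 for all windows but counted as CpG-rich. Hoxa9, Olig3 and Acta2 rose from windows with 4, 4 and 6 CpG.

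**Figure D2:**
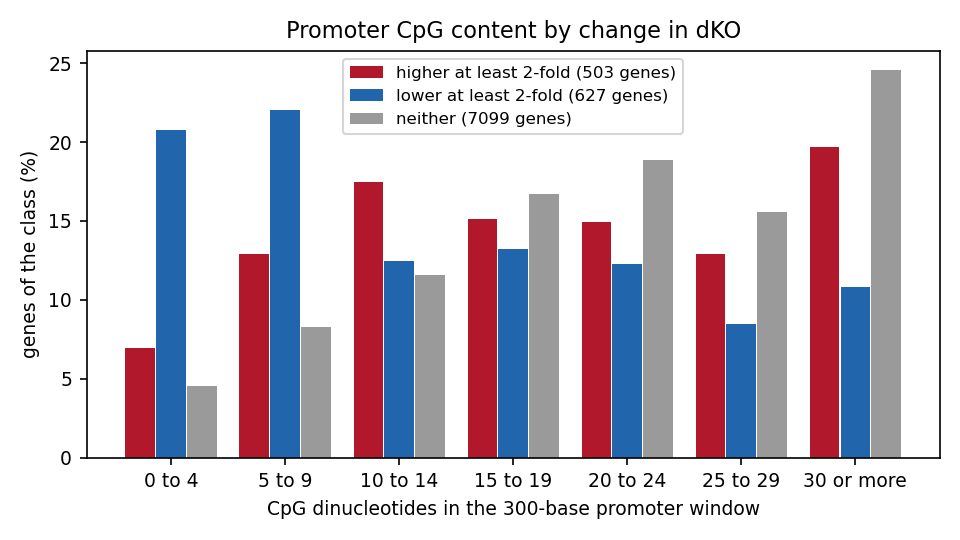
Share of genes (y axis, percent of the class) by number of CpG dinucleotides in the 300-base promoter window (x axis), for genes higher at least 2-fold (503), lower at least 2-fold (627) and neither (7099). Windows with 0 to 4 CpG made up 20.7% of the lower genes, 6.96% of the higher genes and 4.52% of the others.

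In all, 10 motifs were searched on both strands of the windows. A TATAAA stretch was found in 6.79% of all windows, in 12.3% of those of higher genes and 9.57% of those of lower genes. The ETS-type CCGGAAG was found in 18.7% of all, 9.74% of higher and 6.54% of lower genes, and the E-box CACGTG in 10.5%, 10.7% and 5.90%. The NRF1 palindrome stood in 2.08% of all, 1.59% of higher and none of the 627 lower genes. The SP motif GGGCGG stood in 66.6%, 64.8% and 50.9%, and CCAAT in 39.9%, 41.7% and 35.7%. The octamer ATGCAAAT (1.54%, 2.39% and 2.39%), the AP-1 site TGANTCA (4.34%, 5.77% and 5.58%) and the TEAD motif GGAATG (11.9%, 12.1% and 14.99%) completed the search with the CArG box, which stood in 1.32%, 1.59% and 1.59%. A CArG box can contain TATAAA, and a window with both was counted for each. Among the 16 contractile genes with a window, 4 held a CArG box (Acta1, Actc1, Cnn2 and Myl9). Acta2 held none in its window. A match describes letters and is neither a bound site nor a cause.

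Pluripotency factors are the transcription factors that hold the stem cell state, with Pou5f1 (Oct4), Sox2 and Nanog at the core and a second layer that marks the naive state. Most were lower in dKO, and the core trio stayed abundant. Of the 23 tested, 15 were lower and 8 higher, 2 and 1 of them by at least 2-fold. Oct4 measured 1696, 1718 and 1638 TPM in the WT libraries and 1459, 1461 and 1432 TPM in those of dKO (-0.22). Sox2 measured 1217, 1227 and 1261 TPM in the WT libraries and 786, 759 and 778 TPM in those of dKO (-0.67). Nanog went from 1234 to 957 TPM (-0.37). None of these 3 changed by 2-fold, although the lines did not overlap. Utf1, a chromatin protein of undifferentiated cells, fell by more (1136, 1165 and 1091 TPM in the WT libraries and 497, 501 and 499.5 TPM in those of dKO, -1.18).

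In the naive layer, Nr0b1 (Dax1) measured 441, 446 and 443 TPM in the WT libraries and 162, 167 and 158 TPM in those of dKO (log2 fold change -1.44 with an SE of 0.0243 and an adjusted p in limma of 2.60e-09). Further falls were those of Tbx3 (-0.94), Nr5a2 (-0.88), Klf2 (-0.84), Zfp42 (-0.55) and Esrrb (-0.51), and the repressor Tcf7l1, which limits naive gene expression, fell too (-0.76). Other naive factors rose. Gbx2 measured 18.6, 19.3 and 18.5 TPM in the WT libraries and 53.99, 60.3 and 53.4 TPM in those of dKO (log2 fold change 1.52 with an SE of 0.0498 and an adjusted p in limma of 5.97e-08). Klf4 measured 465, 481 and 479.8 TPM in the WT libraries and 824, 798 and 804 TPM in those of dKO (0.76). Stat3 (0.78), Zfp281 (0.47) and Klf5 (0.31) were also higher, so the Klf factors did not move one way: Klf2 was lower, Klf4 and Klf5 higher. The core factor Sall1 (0.53) was higher and Sall4 (-0.27) and Mybl2 (-0.61) lower. Under median-ratio scaling the core split was unchanged at 2 higher and 6 lower, and the naive split was 5 higher and 9 lower.

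**Figure D3:**
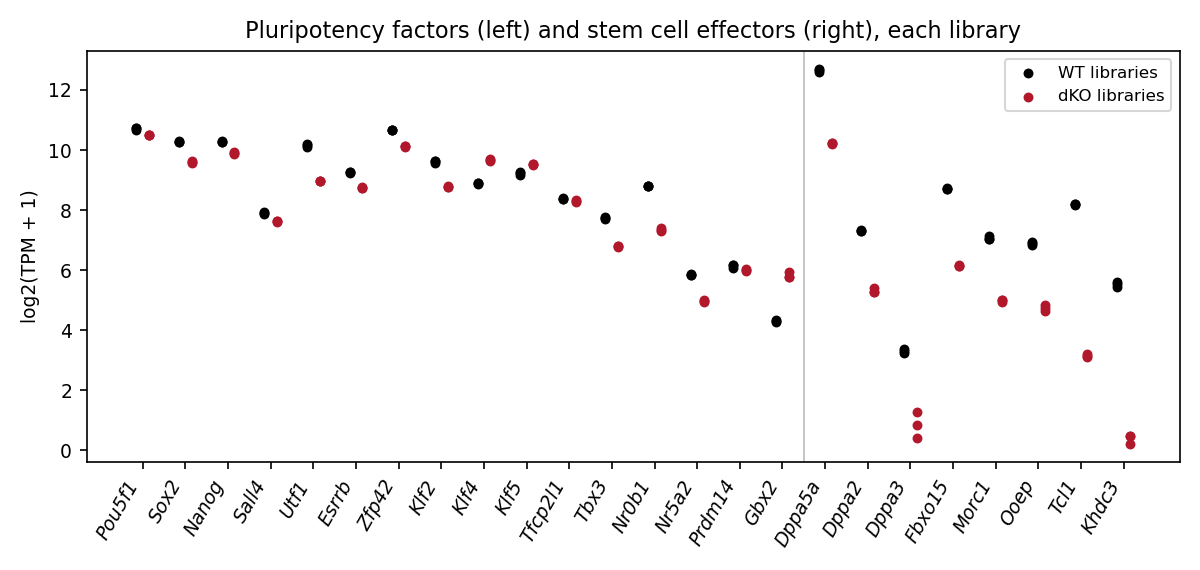
Level of 16 pluripotency factors and 8 stem cell effectors in each library, as log2(TPM + 1), with WT in black and dKO in red. Oct4 (Pou5f1), Sox2 and Nanog lie slightly lower in dKO, Klf4 and Gbx2 higher, and the effectors Tcl1 and Khdc3 lie more than 4 log2 units lower.

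Genes that act in the stem cell or oocyte without being sequence-specific factors changed more. Of 22 tested, 6 were higher and 15 lower in dKO, 2 and 9 of them by at least 2-fold, with a median log2 fold change of -0.496. Tcl1, a co-activator of Akt kinase, measured 283, 292 and 295 TPM in the WT libraries and 8.26, 7.84 and 7.55 TPM in those of dKO (log2 fold change -5.03 with an SE of 0.0355 and an adjusted p in limma of 1.32e-10). Fbxo15, an F-box protein long used as a stem cell reporter gene, measured 419, 423 and 411 TPM in the WT libraries and 69.6, 70.7 and 69.8 TPM in those of dKO (-2.56). Dppa3 (Stella), which shields maternal methylation marks, measured 9.36, 8.55 and 8.81 TPM in the WT libraries and 1.45, 0.34 and 0.775 TPM in those of dKO (-2.46). The WT and dKO libraries were far apart in each, and Dppa3 varied several-fold among the dKO libraries without reaching any WT library. Trim28 (KAP1), the corepressor of retroelements, fell slightly (2523 to 2079 TPM, -0.28). Members that rose were the retroelement suppressor Tex19.1 (70.1 to 167 TPM, 1.24), the lysosomal protein Laptm5 (102 to 217 TPM, 1.09), the adhesion molecule Jam2 (0.64) and the LIF receptor Lifr (0.52).

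Genes that come on when naive cells move to the formative or primed state split both ways. Of 16 transcription factors tested, 7 were higher and 5 lower in dKO, 4 and 2 of them by at least 2-fold, with a median log2 fold change of 0.11, and with median-ratio scaling 6 were higher and 7 lower, with a median of 0.01. Beside Tcf15, the neural-lineage factors Sox11 (6.32 to 21.2 TPM), Hes6 (1.42) and Sox4 (1.26) rose. Etv4, an ETS factor that reports on FGF signalling, measured 86.7, 87.7 and 84.2 TPM in the WT libraries and 7.03, 7.75 and 7.46 TPM in those of dKO (log2 fold change -3.37 with an SE of 0.041 and an adjusted p in limma of 6.55e-10), whereas its relative Etv5 did not pass the test (553 to 539.6 TPM, -0.03) unless median-ratio scaling (-0.14) or voom on the recovered reads (-0.06) was used. The early formative factor Foxd3 fell (262 to 143 TPM, -0.86). The RNA-binding pair Lin28a and Lin28b, which block maturation of the let-7 miRNA, moved in opposite directions. Lin28a measured 219, 218 and 214 TPM in the WT libraries and 73.2, 78.3 and 73.1 TPM in those of dKO (-1.52). Lin28b measured 6.88, 6.74 and 7.07 TPM in the WT libraries and 31.8, 35.9 and 37.02 TPM in those of dKO (2.18). Lin28a was the more abundant in WT on the length-normalised TPM scale, and in dKO the difference in level was smaller.

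Hox genes, homeobox factors laid out in 4 clusters that set position along the body axis, are largely silent in naive stem cells. In dKO the whole Hoxa cluster was higher: all 11 genes were higher by at least 2-fold, with a median log2 fold change of 2.72. Hoxa9, Hoxa10, Hoxa11 and Hoxa13 were under 1 TPM in every WT library. They passed the filter only through dKO and had to be higher there to be tested, so the count is partly set by the filter. The summed level of all 11 Hoxa genes was 6.33 to 7.06 TPM in WT and 265 to 275 TPM in dKO. Hoxa10 measured 0.55, 0.645 and 0.625 TPM in the WT libraries and 92.5, 86.8 and 89.9 TPM in those of dKO (log2 fold change 5.82 with an SE of 0.0496 and an adjusted p in limma of 1.90e-10). Hoxa7 measured 1.07, 1.41 and 1.09 TPM in the WT libraries and 37.4, 37.02 and 36.2 TPM in those of dKO (4.11). Hoxa13, at the far end, measured 0.312, 0.426 and 0.191 TPM in the WT libraries and 8.41, 7.57 and 6.94 TPM in those of dKO (2.72). The highest levels in dKO were those of Hoxa10, Hoxa9, Hoxa7 and Hoxa5, in the middle and 5′ part of the cluster, with Hoxa2, Hoxa3 and Hoxa4 at 4.28 to 5.42 TPM. Hoxa3 overlaps Hoxa4, Hoxa5 and Hoxa6 in the annotation and Hoxa11 overlaps Hoxa11os, so reads may be shared there.

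The Hoxc cluster followed, with all 9 genes higher by at least 2-fold and a median of 2.20. Hoxc10 measured 0.539, 0.51 and 0.658 TPM in the WT libraries and 13.5, 11.7 and 13.1 TPM in those of dKO (log2 fold change 3.13 with an SE of 0.0842 and an adjusted p in limma of 2.22e-08). Hoxc12 and Hoxc13, already detected in WT, went from 12.1 to 45.6 TPM and from 15.46 to 35.4 TPM (1.82 and 1.15). In the Hoxd cluster 5 of 9 genes passed the filter and all were higher, 4 by at least 2-fold, from Hoxd13 (7.14 to 14.5 TPM, 0.93) to Hoxd11 (0.633 to 4.18 TPM, 1.67). Hoxd10 and Hoxd11 overlap. The Hoxb cluster differed, since 6 of its 10 genes stayed below the filter. Hoxb13 measured 0.99, 0.919 and 1.42 TPM in the WT libraries and 11.9, 12.7 and 13.001 TPM in those of dKO (2.69) and Hoxb9 also rose (1.08). Hoxb4 and Hoxb7 did not pass (1.602 to 2.23 TPM, 0.32, and 0.815 to 1.23 TPM, 0.29), although Hoxb4 passed as higher without WT replicate 1 (0.46), in the fit of all 9 libraries (0.32) and with voom (0.51). The 10 Hox genes below the filter are not counted as changed or unchanged. Hoxc9, Hoxc10 and Hoxc11 were under 1 TPM in every WT library and so passed the filter only through dKO. Counts of higher genes in these clusters are thus partly set by the filter.

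**Figure D4:**
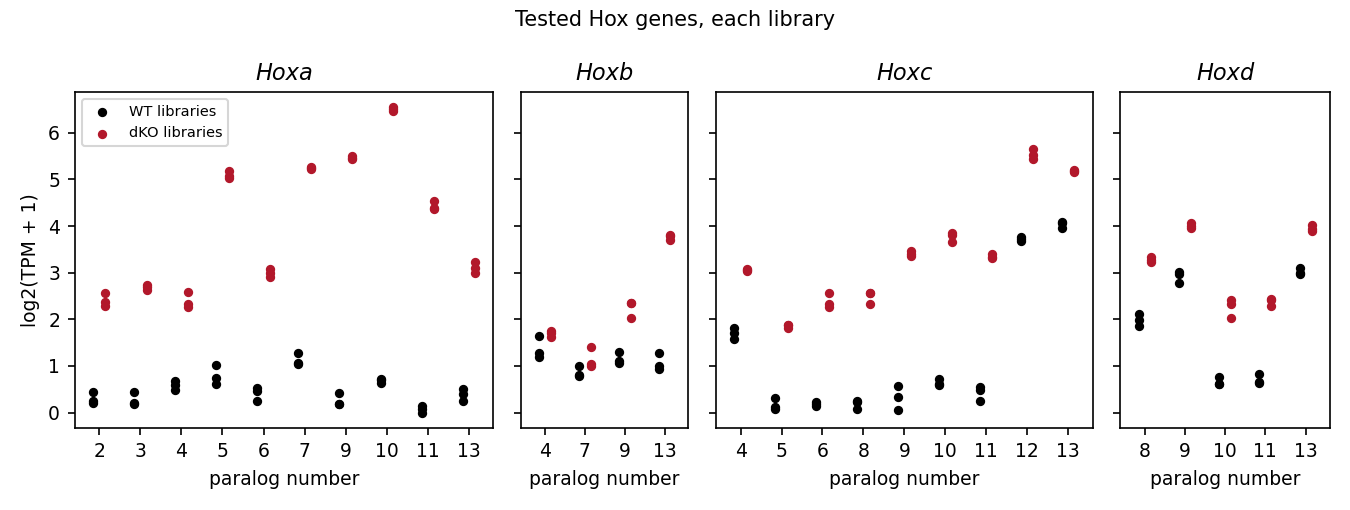
Level of 28 of the 29 tested Hox genes in each library, as log2(TPM + 1), by cluster and paralog number, with WT in black and dKO in red. Every Hoxa, Hoxc and Hoxd gene plotted lies higher in all 3 dKO libraries than in any WT library, while the lines overlap for Hoxb4.

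Among partners and regulators of Hox proteins the direction was mixed. The TALE cofactor Meis1 measured 0.647, 0.601 and 0.567 TPM in the WT libraries and 7.62, 6.87 and 7.58 TPM in those of dKO (log2 fold change 2.38 with an SE of 0.0815 and an adjusted p in limma of 7.49e-08). Pbx3 (1.23) was higher, as was Evx1 (1.18 to 8.35 TPM, 2.10), which lies beside the Hoxa cluster. Pbx4, the related cofactor, was lower (-0.70). Cdx1, a caudal factor that activates Hox genes, fell (34.6 to 8.46 TPM, -1.92), while Cdx2 was close to the filter and higher (0.572 to 1.195 TPM). The H3K79 methyltransferase Dot1l was slightly higher (0.21).

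Genes of the contractile apparatus changed in both directions, and those with the largest rises had been low in WT. Of 19 tested, 13 were higher and 3 lower in dKO, 7 and 2 of them by at least 2-fold, with a median log2 fold change of 0.64. The summed level of the tested members was 2213 to 2248 TPM in WT and 2333 to 2386 TPM in dKO. The smooth muscle actin Acta2 measured 0.433, 0.501 and 0.529 TPM in the WT libraries and 101, 106 and 93.6 TPM in those of dKO (log2 fold change 6.09 with an SE of 0.0587 and an adjusted p in limma of 2.76e-10). Tagln, an actin-bundling protein of smooth muscle whose annotation overlaps Pcsk7, measured 2.998, 2.15 and 1.98 TPM in the WT libraries and 73.8, 74.3 and 63.9 TPM in those of dKO (4.42). The skeletal actin Acta1 measured 0.0897, 0.34 and 0 TPM in the WT libraries and 8.74, 9.6 and 7.96 TPM in those of dKO (3.10). These genes were near or under 3 TPM in every WT library, with no overlap with dKO. Acta2 and Acta1 were under 1 TPM in every WT library, so they passed the filter only through dKO and had to be higher there to be tested. Myl9 and Cnn1, a myosin light chain and a calponin, rose as well (2.44 and 1.40). Other members went the other way: Myh9 fell from 257 to 104 TPM (-1.29), the intermediate filament gene Des fell (-1.003), and the calponin Cnn3 fell slightly (-0.31). The summed level of the smooth muscle markers, which include some of these genes, moved with this group, and its part in the result was not tested. The markers Myh11 and Myocd went from 0.119 to 0.297 TPM and from 0.0163 to 0.135 TPM, under 1 TPM in every dKO library.

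Among SRF cofactors and focal adhesion genes, 13 were higher and 7 lower in dKO, 3 and 0 of them by at least 2-fold, with a median log2 fold change of 0.32. Cytoplasmic actin Actg1 rose (696 to 1287 TPM, 0.89) while Actb fell (3129 to 2543 TPM, -0.30). The adhesion proteins Zyx (1.65), Pdlim7 (1.13) and Pxn (0.66) rose and Actn1 (-0.85), Csrp1 (-0.72), Tagln2 (-0.58) and Tln1 (-0.55) fell, so adhesion genes did not move together.

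The epithelial character of stem cell colonies rests on E-cadherin and tight junctions. Of 29 epithelial adhesion genes tested, 9 were higher and 18 lower in dKO, 1 and 10 of them by at least 2-fold, with a median log2 fold change of -0.58. E-cadherin, Cdh1, measured 166, 167 and 175 TPM in the WT libraries and 12.5, 12.7 and 13.2 TPM in those of dKO (log2 fold change -3.63 with an SE of 0.0336 and an adjusted p in limma of 2.69e-10). The claudins, strands of the tight junction, fell with it: Cldn6 from 39.8 to 5.41 TPM (-2.67), Cldn4 from 150.3 to 36.4 TPM (-2.02) and Cldn3 from 19.4 to 4.48 TPM (-1.90). The junction protein Jup (-0.91) and the protease Prss8 (-1.74) also fell. The list did not fall as a whole, since the keratins Krt18 (1.69) and Krt8 (0.86), cingulin Cgn (0.77), the factor Grhl3 (0.72) and the adhesion molecule Epcam (0.38) rose.

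N-cadherin, Cdh2, the form found on mesenchymal and neural cells, measured 4.73, 4.01 and 4.25 TPM in the WT libraries and 18.5, 19.7 and 18.7 TPM in those of dKO (log2 fold change 1.91 with an SE of 0.0642 and an adjusted p in limma of 6.78e-08). Other mesenchymal genes that rose were Cdh6 (2.38), Tgfb2 (2.07), Zeb2 (1.66) and Twist1 (1.27), of which Zeb2 and Twist1 repress Cdh1. Several abundant genes of the same list fell, among them the matrix protein Sparc (254 to 62.98 TPM, -1.997), P-cadherin Cdh3 (-2.73), vimentin (-0.42) and fibronectin (-0.38). Over the list, 7 were higher and 5 lower of 17, close to the 44.3% and 28.9% of all tested genes.

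Extracellular matrix genes divided by kind. Fibrillar collagens rose from near the detection limit, with Col1a1 from 0.47 to 10.2 TPM (2.94) and Col5a2 from 0.541 to 4.07 TPM (1.72). The basement membrane chains Col4a1 and Col4a2 fell (-0.98 and -0.34), and so did the laminin chain Lama1 (70.9 to 27.3 TPM, -1.35) and the nidogens Nid1 (-1.64) and Nid2 (-0.66). Thrombospondin, Thbs1, measured 0.212, 0.28 and 0.259 TPM in the WT libraries and 13.7, 13.4 and 13.997 TPM in those of dKO (log2 fold change 3.55 with an SE of 0.072 and an adjusted p in limma of 5.65e-09). Tenascin, Tnc (0.0335 to 7.39 TPM, 3.02), the membrane protease Mmp14 (11.2 to 67.03 TPM, 2.48), the crosslinking enzyme Loxl1 (2.14) and the protease Adamts1 (2.29) rose with it. Over 23 laminins, glycoproteins and proteases the counts were 9 higher and 9 lower, and with median-ratio scaling 9 were higher and 11 lower, with a median of -0.08. Col1a1 is also 1 of the fibroblast markers, whose summed level is given above.

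**Figure D5:**
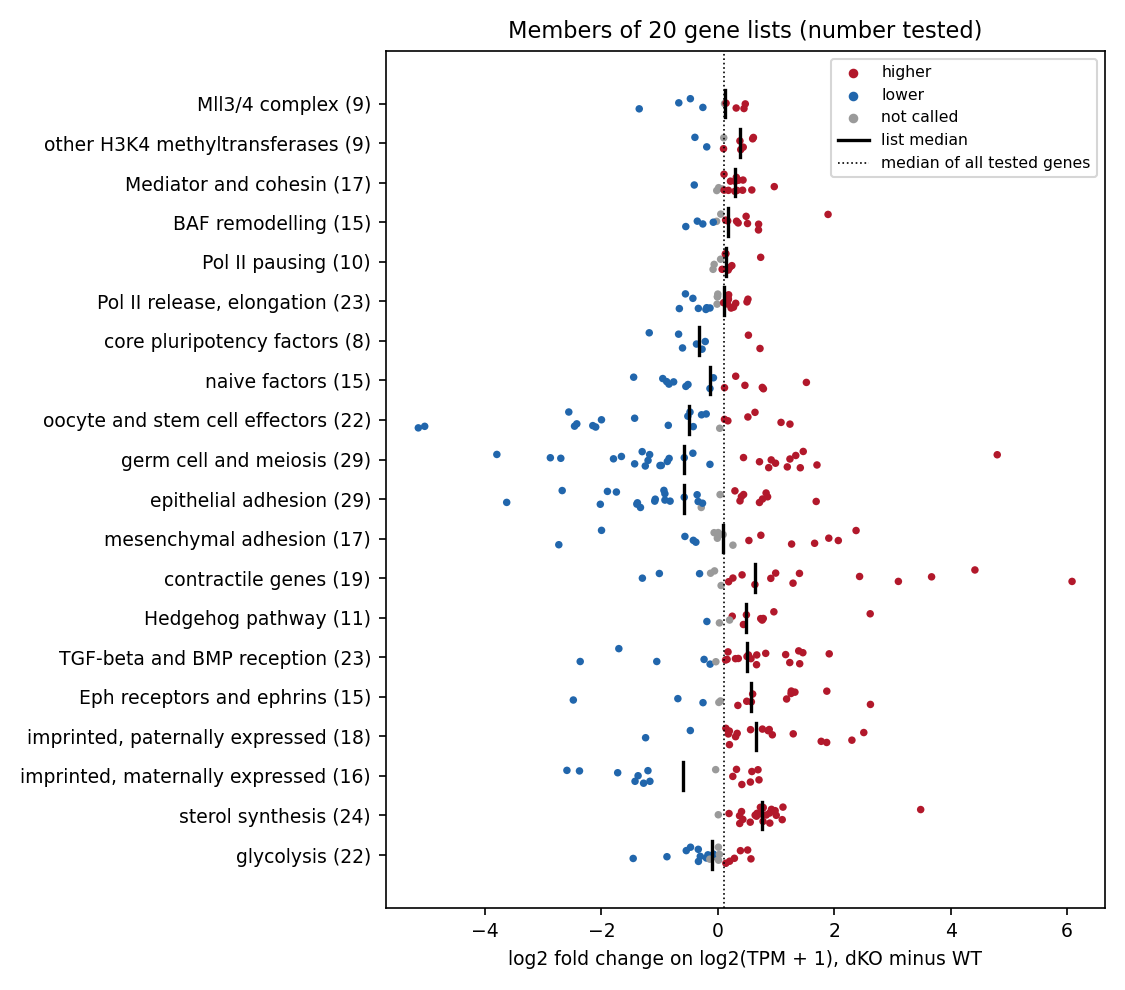
Log2 fold change of every tested member of 20 gene lists (x axis, dKO minus WT on log2(TPM + 1)), with higher genes in red, lower genes in blue, genes that did not pass in grey and the list median as a black bar. The dotted line is the median of all tested genes, 0.10; the medians of sterol synthesis and contractile genes lie to its right, and those of epithelial adhesion, germ cell genes and maternally expressed imprinted genes to its left.

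Signalling genes changed at the level of ligands and receptors as well as targets. In the FGF pathway, which drives exit from the naive state and is blocked at MEK by the medium, the main stem cell ligand Fgf4 measured 445, 436 and 454 TPM in the WT libraries and 179, 176 and 179 TPM in those of dKO (log2 fold change -1.32 with an SE of 0.0211 and an adjusted p in limma of 2.03e-09). Fgf10 measured 9.02, 8.5 and 8.37 TPM in the WT libraries and 0.337, 0.352 and 0.325 TPM in those of dKO (-2.85). Other ligands rose from low levels, Fgf18 (2.44), Fgf15 (1.67) and Fgf17 (1.16), and so did the binding protein Fgfbp1 (1.08 to 17.5 TPM, 3.15) and the receptor Fgfr2 (0.74). Among feedback genes and targets, 7 were higher and 5 lower of 16, beside 44.3% and 28.9% of all tested genes. With median-ratio scaling 5 were higher and 6 lower, with a median of -0.03. The feedback inhibitors Spry4 (-1.10) and Spry2 (-0.57) fell and the phosphatase Dusp4 rose (0.84).

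The Wnt pathway, held active by the GSK3 inhibitor, changed in both directions. Wnt8a measured 0.294, 0.279 and 0.18 TPM in the WT libraries and 13.9, 14.9 and 12.3 TPM in those of dKO (log2 fold change 3.55 with an SE of 0.0919 and an adjusted p in limma of 1.82e-08). Wnt3a and Wnt5b fell (-1.52 and -1.37), both from low levels. The secreted inhibitors Notum (1.77) and Sfrp2 (1.29) rose and Sfrp5 (-1.11) and Sfrp1 (-0.36) fell. Among targets, cyclin D1 measured 42.4, 41.9 and 41.9 TPM in the WT libraries and 214, 208 and 209 TPM in those of dKO (log2 fold change 2.29 with an SE of 0.0222 and an adjusted p in limma of 2.76e-10) and Sp5 rose (5.19 to 24.3 TPM, 2.04). Axin2, Lef1 and Tnfrsf19 fell (-0.72, -1.02 and -2.10), so the target genes did not respond as a set. Of 16 mediators and targets 7 were higher and 6 lower, beside 44.3% and 28.9% of all tested genes. With median-ratio scaling 6 were higher and 8 lower, with a median of -0.07.

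In the TGF-beta and BMP family, of 18 ligands and inhibitors, 13 were higher and 2 lower in dKO, 6 and 0 of them by at least 2-fold, with a median log2 fold change of 0.59. The Nodal antagonists Lefty1 and Lefty2 rose from 78.8 to 209 TPM and from 46.3 to 121 TPM (1.40 and 1.37), and the activin antagonist follistatin, Fst, from 4.95 to 31.8 TPM (2.46). Bmp7 rose (1.13) and Bmp4 fell (-0.89). The BMP targets Id1, Id2 and Id3 rose (Id2 (1.91), Id1 (1.46) and Id3 (1.41)) and Id4 fell slightly (-0.24). Foxh1, the partner of Smad2 in Nodal signalling, measured 133, 128 and 127 TPM in the WT libraries and 23.6, 24.2 and 25.05 TPM in those of dKO (log2 fold change -2.36 with an SE of 0.0314 and an adjusted p in limma of 9.87e-10), with overlap of its annotation with Kifc2. The inhibitory Smad6 fell (30.4 to 8.67 TPM, -1.70), and Tgfbr2 (1.39), Smad5 (1.24) and Smad4 (0.502) rose. Over receptors, mediators and targets, 17 of 23 were higher and 5 lower, beside 44.3% and 28.9% of all tested genes.

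LIF acts through Stat3, and its targets in the list split. The feedback inhibitor Socs3 rose from 163 to 399.9 TPM (1.29) and Junb from 16.6 to 64.5 TPM (1.90). The kinase Pim1 measured 212, 216 and 218 TPM in the WT libraries and 45.3, 47.6 and 46.9 TPM in those of dKO (log2 fold change -2.19 with an SE of 0.0259 and an adjusted p in limma of 5.86e-10), its relative Pim3 fell (-0.33) and Pim2 rose (1.14). The receptor chain Il6st was slightly lower (-0.20) while Lifr was higher (0.52).

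Of 11 Hedgehog pathway genes, 8 were higher and 1 lower, beside 44.3% and 28.9% of all tested genes. Gli1, the factor that reports on the pathway, measured 14.9, 15.2 and 13.8 TPM in the WT libraries and 94.1, 91.4 and 99.4 TPM in those of dKO (log2 fold change 2.62 with an SE of 0.0459 and an adjusted p in limma of 3.18e-09), with an annotation that overlaps Arhgap9. The transducer Smo, the receptor Ptch1 and the factors Gli2 and Gli3 rose by less (Smo (0.96), Ptch1 (0.78), Gli2 (0.76) and Gli3 (0.74)). In the Notch pathway the receptors Notch4 and Notch1 fell (33.7 to 9.68 TPM, -1.71, and 31.7 to 12.95 TPM, -1.23), as did the nuclear mediator Rbpj (-0.57), and Notch2 and the target Hes1 rose (0.39 and 0.70).

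Eph receptors and ephrins, which signal between touching cells, included 6 genes that were higher by at least 2-fold among 15 tested, with 10 higher and 3 lower in all. Of all tested genes 6.22% were higher by at least 2-fold, with 44.3% higher and 28.9% lower in all. Efnb1 measured 3.91, 4.16 and 3.37 TPM in the WT libraries and 28.6, 28.4 and 28.7 TPM in those of dKO (log2 fold change 2.62 with an SE of 0.0664 and an adjusted p in limma of 1.63e-08). Efnb2 (1.87), Efna3 (1.33) and Epha2 (1.18) rose too, the last from 157 to 357 TPM. Epha4 measured 69.9, 70.02 and 70.9 TPM in the WT libraries and 11.8, 11.2 and 12.3 TPM in those of dKO (-2.48). Among 28 semaphorins, plexins, netrins and slits, 12 were higher and 12 lower, and with median-ratio scaling 10 were higher and 13 lower, with a median of -0.04. Sema3e rose (1.204 to 8.13 TPM, 2.05), and Sema4a (-1.57), Sema4g (-1.19) and Sema3b (-1.36) and the netrin receptor Unc5a (-1.91) fell.

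Igf2, a fetal growth factor expressed from the paternal allele, measured 3.79, 3.84 and 3.84 TPM in the WT libraries and 175, 174 and 165 TPM in those of dKO (log2 fold change 5.16 with an SE of 0.0352 and an adjusted p in limma of 1.32e-10). Its annotation overlaps Igf2os. H19, the neighbouring maternally expressed RNA, fell from 11.01 to 3.65 TPM (-1.37). Binding proteins of the IGF axis moved both ways, with Igfbp5 (2.57) and Igfbp3 (2.36) up and Igfbp2 (2424 to 1079.9 TPM, -1.17) and Igfbp4 (-1.71) down. The docking protein Irs1 rose (1.72) and the mRNA-binding protein Igf2bp2 fell (-1.003).

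Imprinted genes were counted by the allele they are known to be expressed from. Of 18 paternally expressed genes, 16 were higher and 2 lower in dKO, 5 and 1 of them by at least 2-fold, with a median log2 fold change of 0.66. Of 16 maternally expressed genes, 7 were higher and 8 lower in dKO, 0 and 8 of them by at least 2-fold, with a median log2 fold change of -0.60. Mest, which overlaps Copg2 in the annotation, measured 58.9, 54.3 and 55.7 TPM in the WT libraries and 279.6, 283 and 283 TPM in those of dKO (log2 fold change 2.30 with an SE of 0.0309 and an adjusted p in limma of 1.03e-09). Ndn (1.87), Sgce (1.78) and Peg3 (1.30) rose beside Peg10. Phlda2, which limits placental growth, measured 45.2, 48.4 and 52.6 TPM in the WT libraries and 6.45, 7.04 and 8.32 TPM in those of dKO (log2 fold change -2.59 with an SE of 0.0879 and an adjusted p in limma of 7.10e-08). Meg3 measured 49.9, 51.4 and 48.3 TPM in the WT libraries and 18.96, 17.2 and 17.8 TPM in those of dKO (-1.42), and Rian (-1.199) and Rtl1 (-1.24) of the same domain fell with it, with overlapping annotation. Rtl1 is the 1 paternally expressed gene of the list that was lower by at least 2-fold. The trophoblast factor Ascl2 and the carrier Slc22a18, near Phlda2, fell from 10.9 to 1.29 TPM and from 5.63 to 1.01 TPM (-2.38 and -1.72). Among maternally expressed genes Igf2r (0.59), Ppp1r9a (0.71) and Cdkn1c (0.56) rose. Table values are per gene and do not tell alleles apart.

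Enzymes of sterol synthesis were higher almost throughout: 23 of 24 passed upward and 0 downward, with a median of 0.76, and with median-ratio scaling 22 were higher and 1 lower. The synthase Hmgcs1 went from 185 to 404 TPM, and it, the regulator Insig1 and the enzyme Cyp51 rose by about 2-fold (Hmgcs1 (1.12), Insig1 (1.11) and Cyp51 (0.99)), and the master factor Srebf2 by less (0.37). Among genes of fatty acids and efflux, the cholesterol exporter Abca1 rose (7.91 to 37.9 TPM, 2.12), the desaturases Fads2 (0.92), Fads1 (0.79) and Scd2 (0.78) rose, and lipoprotein lipase, the exporter Abcg1 and the oxidation enzyme Acadm fell (Lpl (-1.01), Abcg1 (-1.09) and Acadm (-0.95)).

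Amino acid metabolism and transport changed gene by gene. Cth, which makes cysteine, measured 70.5, 76.9 and 72.6 TPM in the WT libraries and 8.98, 9.31 and 9.62 TPM in those of dKO (log2 fold change -2.85 with an SE of 0.0432 and an adjusted p in limma of 1.68e-09). Asparagine synthetase fell from 533 to 170.3 TPM (-1.64) and the glycine cleavage enzyme Gldc from 268 to 98.96 TPM (-1.43). The serine synthesis enzymes Phgdh and Psat1 rose (1.04 and 0.92), as did the stress factors Atf3 (2.13) and Atf5 (1.06). Among transporters, Slc7a7 (2.09), Slc7a6 (1.36) and Slc38a1 (1.12) rose and the arginine carrier Slc7a3 (-1.32) and the glutamate carrier Slc1a1 (-2.25) fell. The glucose carriers Slc2a3 and Slc2a1 rose from 885 to 1728 TPM and from 490.1 to 891 TPM (0.96 and 0.86), the nucleoside carrier Slc29a1 rose (146 to 399 TPM, 1.44) and the zinc importer Slc39a4 fell (126 to 29.3 TPM, -2.07). Glycolysis genes did not follow the glucose carriers: of 22, 6 were higher and 11 lower in dKO, 0 and 1 of them by at least 2-fold, with a median log2 fold change of -0.10, with Eno3 at -1.45, Ldhb at -0.87 and Pgk1 at -0.54. Of hypoxia genes, Ddit4 rose (62.99 to 166 TPM, 1.38) and Epas1 (Hif2a) fell (93.8 to 22.96 TPM, -1.99).

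Oxidative stress genes included several sizeable rises, Gstm5 (2.996), Gsto1 (2.05), Srxn1 (1.87), Gpx3 (1.68) and Nqo1 (1.37), of which Srxn1 and Nqo1 are targets of Nrf2. Glutathione synthetase Gss (63.1 to 15.2 TPM, -1.98) and Gstm1 (-1.08) fell, and the abundant peroxidases Gpx1 and Gpx4 were lower by less than 2-fold (-0.56 and -0.44). Small heat shock proteins diverged: the neighbours Cryab and Hspb2 rose, Cryab measuring 2.93, 2.74 and 1.19 TPM in the WT libraries and 64.9, 70.6 and 72.998 TPM in those of dKO (log2 fold change 4.47 with an SE of 0.2 and an adjusted p in limma of 3.29e-07) and Hspb2 going from 5.33 to 83.6 TPM (3.78), whereas Hspb8 (-2.13) and Hspb1 (-0.67) fell. Cryab and Hspb2 overlap in the annotation. The cytosolic Hsp90 pair also split, with Hsp90ab1 up (0.44) and Hsp90aa1 down (-0.42).

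Few genes of the machinery that reads and uses enhancers changed by 2-fold. Of 54 tested genes for acetyltransferases, repressors, BAF remodelling, Mediator and cohesin, 31 were higher and 13 lower, but only 1 each by at least 2-fold. With median-ratio scaling acetyltransferases and readers went from 6 higher and 2 lower to 5 and 5, repressors from 3 and 6 to 3 and 7, BAF genes from 9 and 4 to 8 and 5, and Mediator and cohesin from 13 and 1 to 10 and 2. The acetyltransferases Crebbp and Ep300 were higher by less than 2-fold (0.49 and 0.24). The neural BAF subunit Bcl11a rose from 0.192 to 3.44 TPM (1.89), and the corepressor Rcor2, which works with the demethylase Lsd1, fell (549, 537 and 522 TPM in the WT libraries and 255, 245 and 254 TPM in those of dKO, -1.09), while its relative Rcor1 rose (0.62). Among Mediator and cohesin genes 13 of 17 were higher, led by the cohesin subunits Stag2 (0.97) and Stag1 (0.58), and with median-ratio scaling 10 were higher and 2 lower.

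None of the 33 tested genes for pausing, release and elongation of RNA polymerase II changed by 2-fold, beside 14.3% of all tested genes. With voom on the recovered reads, however, 1 release or elongation factor was lower by at least 2-fold. Hexim1, which inhibits the release kinase P-TEFb, rose (91.4 to 153 TPM, 0.74) and the elongation factor Ell2 fell (97.6 to 61.4 TPM, -0.66). Aff1 (0.52), Cdk12 (0.31), Supt6 (-0.33) and Tcea3 (-0.43) passed with smaller changes. Among release and elongation factors 12 were higher and 7 lower, and with median-ratio scaling 8 were higher and 10 lower.

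Polycomb complexes, which keep Hox and other developmental genes silent, had some subunits lower and others higher at the RNA level, with no PRC2 gene changed by 2-fold. In PRC2 the core gene Suz12 went from 256 to 149 TPM (-0.78), and Aebp2 (-0.76), Mtf2 (-0.75), Phf19 (-0.93) and Ezh1 (-0.66) fell, while Jarid2 (0.58), Ezh2 (0.32) and Rbbp7 (0.39) rose. With median-ratio scaling 1 PRC2 gene passed 2-fold. In PRC1, Yaf2 rose (10.9 to 27.8 TPM, 1.27), as did Phc2 (0.87), Bmi1 (0.72) and Pcgf2 (0.61), and the CpG-island factor Kdm2b (-0.46) and L3mbtl2 (-0.500), Pcgf6 (-0.45) and Phc1 (-0.39) fell.

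DNA methylation is set by de novo enzymes and copied by maintenance enzymes. Dnmt3l, the cofactor of the de novo enzymes, measured 570.0, 563 and 528 TPM in the WT libraries and 3.85, 4.91 and 3.74 TPM in those of dKO (log2 fold change -6.75 with an SE of 0.08 and an adjusted p in limma of 5.86e-10) and had the lowest log2 fold change of all tested genes on log2(TPM + 1). The enzyme Dnmt3b went from 109.8 to 39.6 TPM (-1.45) and Dnmt3a from 20.3 to 12.2 TPM (-0.68). Uhrf1, which guides maintenance methylation, fell (744 to 498 TPM, -0.58). Of the oxidases, Tet1 did not pass (207 to 202 TPM, -0.03) unless median-ratio scaling (-0.14) or voom (-0.06) was used, Tet2 fell slightly (-0.18) and Tet3 rose (0.57). The silencing list of KAP1, HUSH and small RNA genes held 1 rise of 2-fold or more, the H3K9 methyltransferase Suv39h1 (6.68, 6.69 and 6.32 TPM in the WT libraries and 34.6, 35.9 and 36.8 TPM in those of dKO, 2.28), and 1 such fall, the zinc finger gene Zfp819 (17.02 to 1.24 TPM, -3.02).

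Germ cell and meiosis genes changed in both directions. Of 29 tested, 12 were higher and 17 lower in dKO, 7 and 10 of them by at least 2-fold, with a median log2 fold change of -0.58. Besides Stra8, falls included the meiotic genes Hsf2bp (112 to 16.4 TPM, -2.70), Smc1b (-2.88), Tdrd12 (-1.79) and Hormad1 (-1.66) and the germ cell determinants Prdm1 (-1.25) and Tfap2c (-0.84). The helicase Ddx4 (Vasa), the piRNA factor Tdrd1 and Syce1 rose beside Tex13 (Ddx4 (1.42), Tdrd1 (1.47) and Syce1 (1.34)). Smc1b overlaps Fam118a. Of 21 listed 2-cell-like genes, 11 stayed below the filter. The 10 tested summed to 266 to 275 TPM in WT and 218 to 224 TPM in dKO. Of these 10, 5 were higher and 4 lower, 1 and 2 of them by at least 2-fold. Pramel7 fell from 4.99 to 0.0877 TPM (-2.45), and the Zscan4 and Usp17l genes have near-identical copies between which reads are uncertain.

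Several innate immune genes fell. Rnf213, a large ubiquitin ligase induced by interferon, measured 43.8, 38.1 and 43.6 TPM in the WT libraries and 1.34, 1.28 and 1.49 TPM in those of dKO (log2 fold change -4.17 with an SE of 0.0705 and an adjusted p in limma of 2.67e-09). Oas1a went from 24.9 to 0.868 TPM (-3.80), though reads of the Oas1 copies are uncertain, and the sensors Ddx58 (RIG-I) and Zc3hav1 (ZAP) fell (-1.71 and -1.49). The class II gene H2-Eb1 fell (39.1 to 1.54 TPM, -3.99) and H2-D1 with Tapbp by less (-1.04 and -1.10), whereas B2m (38.7 to 126 TPM, 1.68), the shared light chain of class I, and H2-K1 (0.99) rose. Ifitm3 was higher (0.56). Over the interferon list 9 were higher and 11 lower of 24, and 8 listed genes were below the filter.

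Several inhibitors of the cell cycle and a pair of D-type cyclins rose. Cdkn1a (p21) went from 90.8 to 301 TPM (1.72), Cdkn2a from 62.99 to 189.9 TPM (1.58) and Cdkn2b from 4.4 to 14.02 TPM (1.48), while Ccnd2 rose beside Ccnd1 (1.201 to 6.72 TPM, 1.81). Cdk2 and the stem cell oncogene Mycl fell (-0.73 and -1.61). Among apoptosis genes Casp8 rose from 1.52 to 14.01 TPM (2.58) and Bmf fell (-1.39). Perp, a p53 target in cell adhesion, measured 7.1, 7.25 and 8.18 TPM in the WT libraries and 80.4, 83.9 and 84.3 TPM in those of dKO (log2 fold change 3.30 with an SE of 0.0524 and an adjusted p in limma of 1.96e-09), and Trp53 itself changed little (288 to 336 TPM, 0.22). Of the p53 list 14 were higher and 4 lower of 22, beside 44.3% and 28.9% of all tested genes, with Tigar at -1.26.

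Changed genes lay beside each other more often than the overall frequency. Gene order was taken from a GRCm38 table by symbol, for 13733 tested genes. Of 881 higher genes with a next tested neighbour, that neighbour was also higher by at least 2-fold for 16.9%, against 6.43% for the next neighbour of any gene. For 1100 lower genes the next was lower for 19.3%, against 8.01%. Runs of 3 or more such neighbours numbered 25 upward with 97 genes and 39 downward with 130. The longest, of 15 genes on chromosome 6, held the Hoxa cluster and ended at Evx1, and the next through 9 Hoxc genes on chromosome 15. Downward runs included Dnah8, Glp1r, Abcg1 and Ubash3a on chromosome 17 and Aplp1, Kirrel2 and Nphs1 with its antisense gene on chromosome 7. The kidney slit genes Nphs1 and Kirrel2 are such neighbours, and Nphs1 measured 42.1, 37.99 and 41.6 TPM in the WT libraries and 0.858, 1.13 and 0.922 TPM in those of dKO (-4.40). On chromosome 9, a run of 4 higher genes held Dixdc1, Cryab and Hspb2. Overlapping annotation can add to these figures, since overlapping genes are neighbours. Leaving out the Y, with 7 tested genes, the X chromosome had the highest share of genes higher by at least 2-fold (13.8% of 493) and chromosome 7 the highest share of lower genes (12.7% of 1082).

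The leading genes were last set against the catalytically deficient line, in a fit of all 9 libraries over the same genes, where 10857 genes (69.9%) differed between dKO and dCD and 1588 (10.2%) by at least 2-fold. This contrast uses the same dKO libraries as the one with WT, and the leading genes were picked on those, so each gene is given by its own values and no share of genes is read from them. Hoxa10 averaged 0.437 TPM in dCD and was higher in dKO by a log2 difference of 5.98. The difference was 5.09 for Hoxa9 and 3.72 for Tex13. Acta2 averaged 520.0 TPM in dCD and was lower in dKO (-2.37), as was Tagln (-2.71). Cryab did not pass (0.37, limma adjusted p = 0.0872). Dnmt3l averaged 309 TPM in dCD and was lower in dKO (-5.91), and H2-Eb1 differed by -1.42. Cdh1 averaged 290.3 TPM in dCD. Peg10 and Efnb1 did not pass between the mutant lines (0.01 and -0.01, limma adjusted p = 0.906 and 0.837).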

How the data were processed

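RNA sequencing of polyadenylated RNA from 3 WT and 3 dKO libraries, and 3 dCD libraries for the difference between mutant lines, was taken from the authors' deposited table of TPM per gene, which also gives gene lengths. HISAT2, featureCounts and DESeq2 and the build mm9 are named in the submitters' processing notes. The annotation, any use of strand and the treatment of multiply aligned reads were not given in the sources used here. Whole reads per gene were recovered from the TPM and lengths (100% of values whole within 0.01) and used for depth and 1 alternative. Values were log2(TPM + 1), tested in limma 3.58.1 (R 4.3.3) with an empirical Bayes trend, genotype as the only term and Benjamini-Hochberg adjustment over all 15536 genes. A gene was called at an adjusted p under 0.05, and as changed at least 2-fold where the log2 fold change was also at least 1 in size. The code was tested on simulated data.

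Named genes were the targeted genes, the 15 highest and 15 lowest log2 fold changes, the 10 largest rises and falls in TPM, genes on in 1 line and off in the other, members of long runs of neighbours, markers, and from each list up to 5 called members per direction with the largest changes and up to 3 of the highest level. All COMPASS, naive factor and Hox genes could be named. The members and lists were chosen with earlier results of these data known. Rows whose symbols had been turned into dates were tested but not named, and genes with predicted or clone names were mostly skipped. Promoter windows came from RefSeq (GRCm38.p6) and gene order from RefSeq by symbol. Alternatives were another pseudocount, other filters, median-ratio scaling, a replicate block, a fit of all 9 libraries, voom on the recovered reads, each library left out in turn and stricter CpG thresholds. Reads of a gene and of one that overlaps it, antisense ones included, may have been shared. Values of some genes are not reported here.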

Additional observations from a re-analysis of the deposited data

How the results depend on the processing

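The count of genes changed at least 2-fold between dKO and WT, 2229, became 2947 with a pseudocount of 0.1, 1501 with at least 5 TPM required (fewer genes tested), 2270 with no filter, 2194 with median-ratio scaling and 2995 with limma's voom on recovered reads. Leaving out each library in turn gave 2224 to 2243, and 10816 to 11078 genes by adjusted p alone against 11383. In the comparison of dKO with dCD the count at 2-fold went from 1588 to 2279 with a pseudocount of 0.1. No label says that the replicate numbers pair the libraries. The deviations of same-numbered libraries correlated at -0.01, -0.01 and 0.06, and those of differently numbered ones at -0.06 to 0.07. No shared effect is visible there, but such values cannot decide whether libraries were prepared in pairs. With the replicate number as a block 2229 genes changed at least 2-fold and 11313 were called by adjusted p alone, and Utx (log2 fold change 0.12) passed as higher. With stricter CpG thresholds (GC of at least 55%, ratio of at least 0.65, chosen after seeing the data) 49.9% of higher, 33.3% of lower and 62.8% of other genes had a CpG-rich promoter, and the order of the 3 classes was the same. Depth limits genes near 1 TPM, where a gene may hold few reads in a library. The 3 libraries a line come from 1 line each.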

Other observations

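A list of X-linked genes held Xist, Rhox homeobox genes and others. Of its 21 tested genes, 12 were higher and 3 lower, 4 and 0 of them by at least 2-fold. By comparison 73.3% of all tested genes passed, a share close to that of the list. On the X chromosome, 13.8% of 493 tested genes were higher and 7.30% lower by at least 2-fold. Rhox6, a homeobox gene of placenta and germ line, measured 1.65, 0.723 and 0.467 TPM in the WT libraries and 10.2, 9.41 and 9.92 TPM in those of dKO (log2 fold change 2.52 with an SE of 0.197 and an adjusted p in limma of 8.15e-06). Rhox9 measured 0.31, 0.326 and 0.126 TPM in the WT libraries and 2.34, 2.32 and 1.99 TPM in those of dKO (1.36). Both were higher in every dKO library than in any WT library, and the lines did not overlap for 75.9% of all tested genes. Rhox9 was under 1 TPM in every WT library, so it passed the filter only through dKO and had to be higher there to be tested. In the catalytically deficient line Rhox6 and Rhox9 averaged 77.3 and 24.1 TPM, above dKO. Among runs of neighbouring genes, chosen here after their values were seen, the kallikreins Klk13, Klk11, Klk10 and Klk8 on chromosome 7 were lower with a median log2 fold change of -2.09, and the gamma crystallins Cryge, Crygd and Crygc on chromosome 1 with -1.90. The metalloreductases Steap2, Steap1 and Steap4 on chromosome 5 were higher with 1.15, and the stress ligands Raet1e, H60b and Raet1d on chromosome 10 with 1.86.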
